A study of Rattus norvegicus with 8 samples.

Results

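The matrix metalloproteinases and their tissue inhibitors were followed here in cultured rat bone-forming cells, with or without exposure to a laser. The 10 genes were chosen by family name, *Mmp2*, *Mmp3*, *Mmp9*, *Mmp10*, *Mmp13* and *Mmp14* as 6 proteinases and *Timp1*, *Timp2*, *Timp3* and *Timp4* as 4 inhibitors, among 34912 gene names on the array. They were proposed with the difference between irradiated and non-irradiated arrays already known, above all for *Mmp3*, so values of that contrast are given as a description. The array carried 15 probes for the 10 genes, in 61 spots.

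Osteoblast-like cells were primary cultures from the calvariae (skull bones) of 3- to 5-day-old Wistar rats. Such cultures are mixtures of calvarial cells and are named by their source. One group of 4 cultures was left non-irradiated, and the other 4 were exposed for 60 s to an Er:YAG laser, a dental infrared laser, at a fluence of 3.3 J/cm2. All 8 were collected at the 6 h time point. Labeled copies (cRNA) were made from 200 ng RNA of each culture and hybridized to 1 array in 1 color. Cultures are numbered 1 to 4 in each group, and the 2 arrays of a number are called a pair. An array had 26543 to 30490 probes well above background, by the mark the scanner software sets on each spot. The number of arrays limits the precision. Levels below are log2 signals after quantile normalization, and a difference is irradiated minus non-irradiated.

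Matrix metalloproteinases are zinc enzymes that cut collagens, proteoglycans and other components of the extracellular matrix, and most are secreted as inactive proenzymes that have to be cleaved. The tissue inhibitors of metalloproteinases bind the active site and block it, so that matrix turnover depends on both families. In bone, osteoblasts make several of these enzymes and inhibitors, and collagenase activity takes part in remodeling of the mineralized matrix.

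*Mmp3*, *Mmp10* and *Mmp13* are inducible genes of one cluster. Their probes lay on chromosome 8 of the rat genome build rn4 within 205.6 kb. The promoter table of RefSeq (build GRCr8) held 7 of the 10 genes, *Mmp3*, *Mmp10*, *Mmp13* and the 4 inhibitors. The 100 bases before the annotated start of the 3 proteinase genes are shown because they share a short motif, TGANTCA. N stands for any base, and the motif reads the same on both strands. With G or C as N it is the letter pattern bound by AP-1 factors of the Fos and Jun families. Capitals mark it.
*Mmp3* (chr8:12925181-12925280, + strand): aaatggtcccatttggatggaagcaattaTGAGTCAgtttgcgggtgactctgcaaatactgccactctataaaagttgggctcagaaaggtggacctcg
*Mmp10* (chr8:12974607-12974706, + strand): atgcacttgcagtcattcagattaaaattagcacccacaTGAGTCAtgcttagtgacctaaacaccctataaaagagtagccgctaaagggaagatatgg
*Mmp13* (chr8:12782729-12782828, + strand): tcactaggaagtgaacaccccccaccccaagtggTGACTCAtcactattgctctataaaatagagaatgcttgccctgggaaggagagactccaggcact
The motif began 71 bases before the start in *Mmp3*, 61 bases in *Mmp10* and 66 bases in *Mmp13*. The letters TATAAA, searched on both strands and sharing no base with the first motif in these genes, began closer to the start, at 32, 33 and 47 bases. *Mmp10* held them also at 196 and 198 bases. In the 250 bases before the start, TGANTCA was held by 6.34% of 33469 promoters, TATAAA by 12.9% and both by 1.02%. The shares with TGANTCA also count promoters with A or T as N, while the 3 proteinase genes hold G or C. Neither was found in that window of *Timp1*, *Timp2*, *Timp3* or *Timp4*, which says only that these letters are not there. Binding at these letters was not measured.

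**Figure D1:**
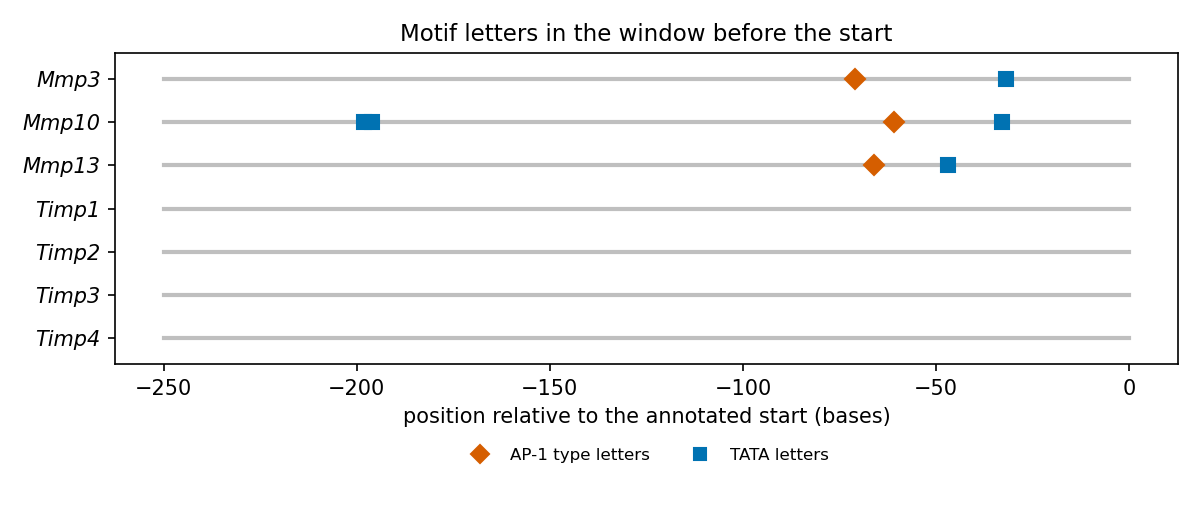
Position of the letters TGANTCA (diamonds) and TATAAA (squares) in the 250 bases before the annotated start of 7 genes, in bases relative to the start. *Mmp3*, *Mmp10* and *Mmp13* hold the first motif between 61 and 71 bases before the start, and the 4 inhibitors hold neither.

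The first question was how the proteinases and inhibitors stood 6 h after irradiation. *Mmp3* was higher in the irradiated array of all 4 pairs on its brighter probe. On the brightest probe of each, *Mmp2*, *Mmp14* and the 4 inhibitors differed by less than 1 standard error, and *Mmp13* moved in opposite directions in pairs 1 and 2. Of the 15 probes, 12 were tested, for 8 genes, because they rose well above background on every array of 1 group or both. *Mmp9*, *Mmp10* and a second probe of *Mmp3* were below that limit. In limma, blocking on replicate number, 0 of 26391 probes of the array (0%) passed an adjusted p of 0.1, and 676 had an unadjusted p below 0.05. Of these, 387 (1.47% of all probes tested) were higher and 289 (1.1% of all probes tested) lower. Scaling each array to its 75th percentile in place of quantile normalization gave 492 higher and 149 lower, and leaving out replicate 2 turned the balance to 657 higher and 789 lower. Among the 12 member probes, 1 (*Mmp3*) was below the unadjusted limit. Since *Mmp3* was picked with that value known, nothing is read from this count. The ranges of the irradiated and non-irradiated arrays overlapped for all 15 member probes. Over the array they did not overlap for 146 of 26250 tested probes (0.556%), so overlap is the rule and tells little of the members.

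**Figure D2:**
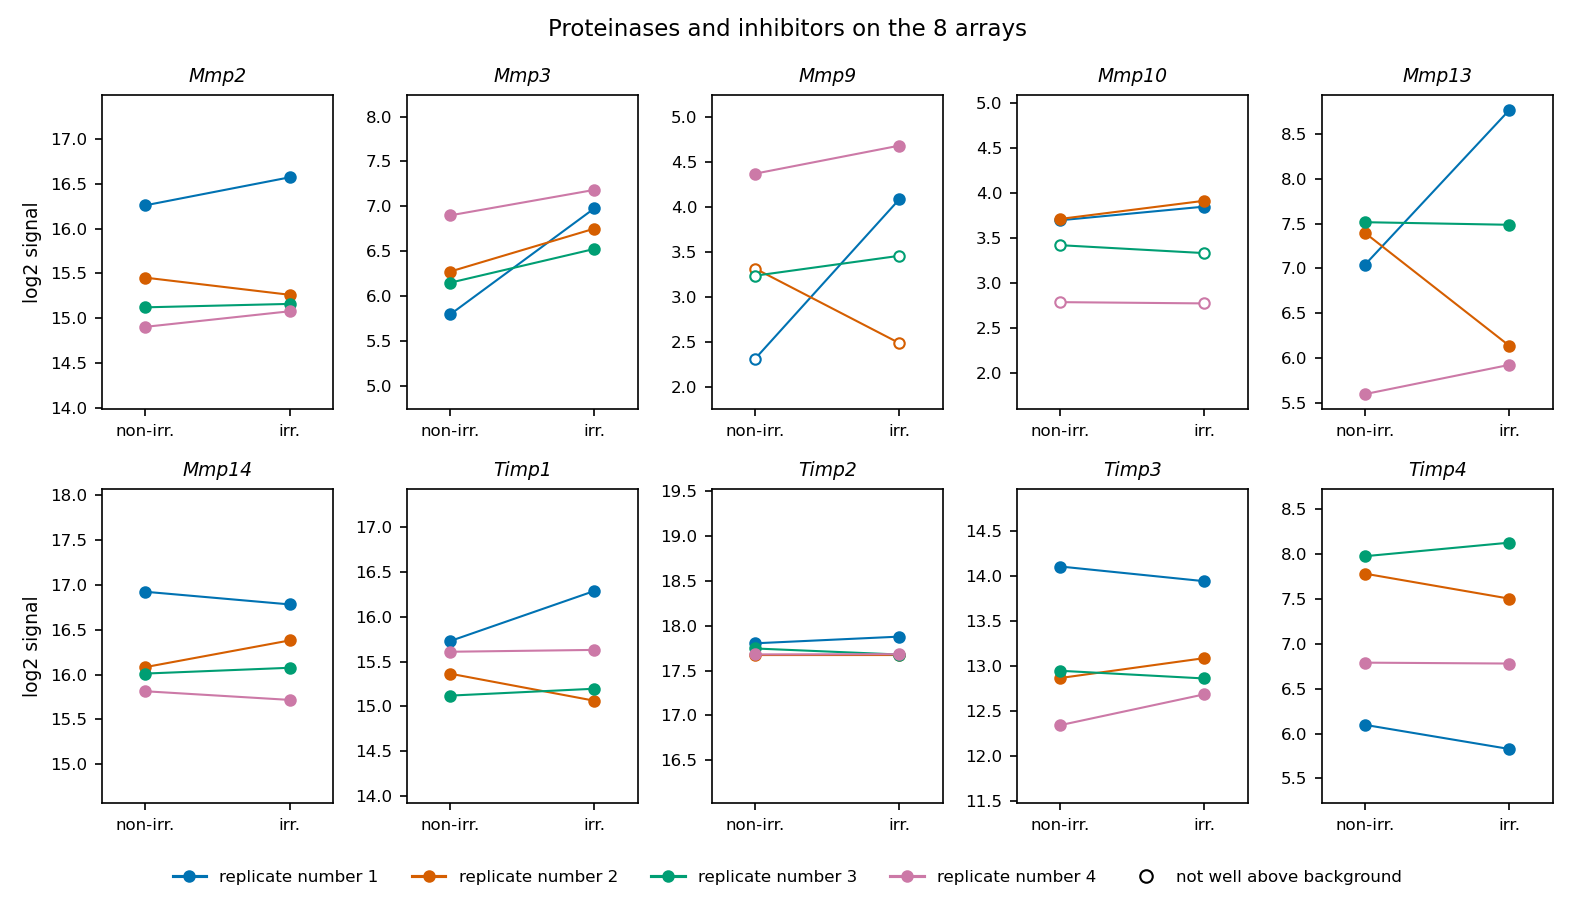
Log2 signal of the probe with the highest mean signal of each of the 10 genes, with a line joining the 2 arrays of a replicate number, non-irradiated at left and irradiated at right. Every panel spans the same width of the log2 scale, open circles were not well above background (for *Mmp10* that of non-irradiated array 1 lies under the point of array 2), and *Mmp3* is the gene whose 4 lines all go up.

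*Mmp14* encodes the membrane-bound type 1 enzyme, which cleaves fibrillar collagen at the cell surface and activates the proenzyme of *Mmp2*. Its 2 probes share 50 of 60 bases and are not independent readings. On probe A_43_P14927 (chromosome 15, chr15:32503012-32503071 of rn4, + strand) the log2 signal was 16.92, 16.08, 16.01 and 15.81 on non-irradiated arrays 1 to 4 and 16.78, 16.38, 16.07 and 15.72 on irradiated arrays 1 to 4. Both arrays of number 1 were the highest of their groups, and the groups overlapped. The difference was 0.03 (standard error 0.13), and the other probe gave 0.03 (standard error 0.14). Each was higher in 2 of 4 pairs, and without replicate 2 they turned to -0.06 and -0.09. Without replicate 1 they were 0.09 and 0.11, without replicate 4 0.07 and 0.08, and without replicate 3 0.02 and 0.0036.

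*Mmp2* encodes gelatinase A, which degrades denatured collagen and the type IV collagen of basement membranes. Its brighter probe, A_44_P1087178 (chr19:15246030-15246089, - strand), was at 16.26, 15.45, 15.12 and 14.91 on non-irradiated arrays 1 to 4. On the irradiated arrays it was at 16.57, 15.26, 15.16 and 15.08. Again number 1 was highest in both groups, by more than any difference within a pair. The difference was 0.08 (standard error 0.13), and 0.01 (standard error 0.17) on a second probe (chr19:15246805-15246864), each higher in 3 of 4 pairs with pair 2 going down. With 1 replicate left out, these ran from 0.01 (without replicate 1) to 0.17 (without replicate 2) and from -0.07 (without replicate 4) to 0.20 (without replicate 2). The second was also negative without replicate 1 or 3, at -0.04 in each.

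*Mmp3* encodes stromelysin-1, an enzyme of broad substrate range that also activates other proenzymes and is known as a target of inflammatory cytokines. Its 2 probes are shown because they read different stretches of the transcript and differ in signal over background.
A_43_P13197 (chr8:4329056-4329115 of rn4, + strand), first 30 of 60 bases: agaggagaaaacacactcctgggctacaga
A_44_P318318 (chr8:4325061-4325526 of rn4, + strand): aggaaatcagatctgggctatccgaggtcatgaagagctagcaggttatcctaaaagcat
The 60 bases of A_44_P318318 span 466 bases of genome, so this probe lies across an intron. Probe A_43_P13197 lies 3.53 kb further along the gene and reads an uninterrupted stretch. Whether it lies in a UTR is not given in the sources used here, so only its first 30 bases are shown.

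On A_43_P13197, present as 2 spots, the log2 signal was 5.80, 6.27, 6.15 and 6.90 on non-irradiated arrays 1 to 4. On irradiated arrays 1 to 4 it was 6.98, 6.75, 6.53 and 7.18. The irradiated array was higher in every pair, but non-irradiated array 4 lay above 2 of the irradiated ones, at 6.90 against 6.75 and 6.53. The pairs differed by 1.18, 0.48, 0.38 and 0.28. The standard deviation between the 2 spots of an array had a median of 0.12 and reached 0.46, so that the differences of pairs 2, 3 and 4 were close to or below the largest one. The mean difference was 0.58 (standard error 0.18), a 1.49-fold higher signal, from 6.28 ± 0.46 (SD, n = 4) to 6.86 ± 0.28 (SD, n = 4). Without replicate 1 it was 0.38, and with normexp background correction 0.34. Of all tested probes with a value in every pair, 3.84% were higher and 3.66% lower in all 4 pairs. This near balance changed with the processing, to 1108 higher and 734 lower with 75th percentile scaling and to 1716 higher and 3068 lower with no filter on dim probes. Without replicate 2, over 3 pairs, it was 3146 higher and 4342 lower. *Mmp3* was 1 of the 1009 probes that were higher, and 0 member probes were lower in all 4.

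The second probe, A_44_P318318, gave 4.14, 4.84, 3.73 and 3.83 on the non-irradiated arrays and 3.57, 3.14, 3.16 and 4.22 on the irradiated arrays. It was well above background on 2 non-irradiated arrays (numbers 1 and 2) and 1 irradiated array (number 4), and in no pair on both arrays. This probe therefore gives no readable difference, and on these arrays the higher irradiated signal of *Mmp3* rests on A_43_P13197 alone. Which of the 2 probes follows the transcript more closely was not tested here, where only the arrays were used.

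**Figure D3:**
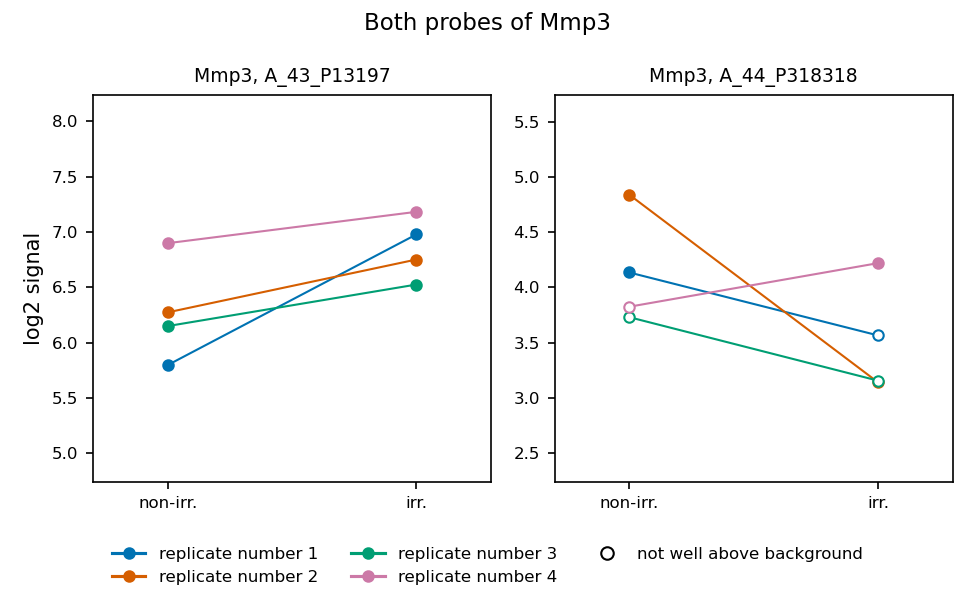
Log2 signal of both probes of *Mmp3* on the 8 arrays, with the 2 arrays of a replicate number joined by a line. A_43_P13197 goes up in 4 of 4 pairs, while A_44_P318318 has open circles, for values not well above background, in every pair.

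*Mmp10*, which encodes stromelysin-2, lies in the same cluster as *Mmp3*, with 44.3 kb between their probes and the probe of *Mmp1* between them. Its only probe (chr8:4373403-4374134, across an intron) was at 3.70, 3.71, 3.42 and 2.78 on non-irradiated arrays and 3.85, 3.91, 3.33 and 2.77 on irradiated arrays 1 to 4. It was well above background on 3 of 8 arrays, both of number 2 and the irradiated array of number 1. Differences within pairs lay between -0.09 and 0.20, and most of these signals were not above background.

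*Mmp13* encodes collagenase-3, the main collagenase of rodent bone, which osteoblasts and hypertrophic cartilage cells make. Its probe (chr8:4168554-4168613, + strand) was at 7.04, 7.39, 7.51 and 5.60 on non-irradiated arrays and at 8.76, 6.14, 7.49 and 5.93 on irradiated arrays 1 to 4. The irradiated array was the higher one by 1.72 in pair 1 and the lower one by 1.26 in pair 2 (6.14 against 7.39), and pair 3 hardly differed. The mean difference was 0.19 (standard error 0.44), from 6.89 ± 0.88 (SD, n = 4) to 7.08 ± 1.32 (SD, n = 4). It was -0.32 without replicate 1 and 0.67 without replicate 2, so that its sign rested on replicate 1 and its size on both.

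*Mmp9* encodes gelatinase B, which in bone is known mainly from osteoclasts and from cells of the blood line. Its probe (chr3:155992463-155992522, + strand) was at 2.31, 3.31, 3.24 and 4.37 on non-irradiated arrays and at 4.09, 2.48, 3.46 and 4.68 on irradiated arrays 1 to 4. Only 3 of the 8 arrays, both of number 4 and the irradiated array of number 1, were well above background, and *Mmp9* was not tested. Beside it, the marker of blood-derived cells *Ptprc* was well above background on 0 of 4 non-irradiated arrays and 1 of 4 irradiated arrays. The osteoclast receptor *Calcr* had the same counts, while the osteoclast enzyme *Acp5* was well above background on all 8. Of 9 macrophage and osteoclast markers, 8 were on the array, with a summed signal of 6166, 4164, 4078 and 3201 on non-irradiated arrays and 4839, 5533, 4511 and 3168 on irradiated arrays 1 to 4. *Acp5* made up 72.8% of that sum, and *Cd68*, *Aif1* and *Cd14* were also well above background throughout. *Csf1r* and *Adgre1* were not on every array. Of 6 neutrophil and mast cell markers, *Elane*, *S100a8* and *Cpa3* were not well above background on any array. *S100a9* was well above background on 2 of 4 non-irradiated and 3 of 4 irradiated arrays, and *Mpo* on 1 of 4 and 0 of 4. *Kit* was so on all 8 and made up 83.4% of the sum. The part of these cell types in the *Mmp9* signal was not tested.

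Among the inhibitors, *Timp1* encodes a secreted protein that also binds the proenzyme of *Mmp9* and is known to be induced by growth factors. Its probe spans 1004 bases of genome and crosses an intron (chrX:12542700-12543703, - strand). The log2 signal was 15.73, 15.36, 15.12 and 15.61 on non-irradiated arrays and 16.29, 15.06, 15.20 and 15.63 on irradiated arrays 1 to 4. The irradiated array was higher in pair 1 by 0.56, lower in pair 2, and within 0.08 in the others. The mean difference was 0.09 (standard error 0.16) and turned to -0.07 without replicate 1 and 0.22 without replicate 2.

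*Timp2* encodes the inhibitor that, with the product of *Mmp14*, takes part in activating the proenzyme of *Mmp2*. It hardly differed between arrays. Its probe (chr10:108311244-108311303, - strand) was at 17.80, 17.67, 17.75 and 17.68 on non-irradiated arrays and at 17.88, 17.67, 17.68 and 17.68 on irradiated arrays 1 to 4. The means of the replicate numbers lay within 0.17 of each other, and the largest difference within a pair was 0.07 in size. No spot was saturated on any array.

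*Timp3* encodes an inhibitor that stays bound to the matrix and also blocks ADAM-type proteinases. Its brightest of 3 probes, A_44_P237664 (chr7:19676183-19676242, - strand), was at 14.11, 12.86, 12.95 and 12.34 on non-irradiated arrays. On irradiated arrays 1 to 4 it was at 13.94, 13.09, 12.86 and 12.68. Number 1 was highest in both groups by more than any difference within a pair. The mean difference with irradiation was 0.08 (standard error 0.14), and it was -0.06 in the log2 values the authors deposited. The other probes gave 0.11 (standard error 0.20) and -0.23 (standard error 0.22). With 1 replicate left out, the first of the 3 probes ran from -0.01 (without replicate 4) to 0.16 (without replicate 1), the second from -0.09 (without replicate 4) to 0.26 (without replicate 3) and the third from -0.45 (without replicate 4) to -0.08 (without replicate 1 or 3). Number 1 was highest on all 3 probes.

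*Timp4* encodes the inhibitor known mostly from heart, and it had the widest spread between replicate numbers among the inhibitors. The first 30 bases of its probe are shown because the replicate result below rests on this 1 spot per array.
A_44_P1056949 (chr4:151375657-151375716 of rn4, - strand): atccttggaagagttctgaagaccaagcca
The log2 signal was 6.10, 7.78, 7.98 and 6.79 on non-irradiated arrays 1 to 4. On irradiated arrays 1 to 4 it was 5.83, 7.50, 8.13 and 6.78. Number 1 was lowest and number 3 highest in both groups, so that the groups covered nearly the same range, at 7.16 ± 0.88 (SD, n = 4) and 7.06 ± 0.99 (SD, n = 4). The mean difference was -0.10 (standard error 0.13), lower in 3 of 4 pairs. It was -0.05 without replicate 1, -0.04 without replicate 2 and -0.19 without replicate 3.

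**Figure D4:**
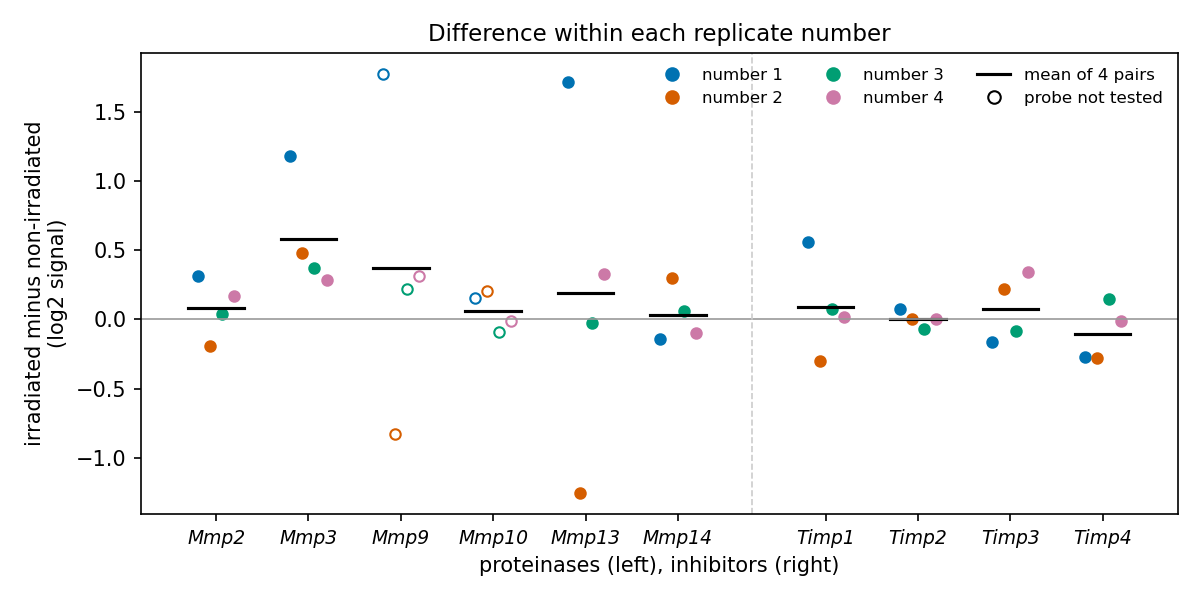
Log2 difference, irradiated minus non-irradiated, within each of the 4 replicate numbers for the brightest probe of each gene, with a bar at the mean. The points of *Mmp3* all lie above 0, and those of *Mmp13* reach from -1.26 to 1.72.

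Among proteinases, the 6 tested probes differed by 0.01 to 0.58 with irradiation, 5 of them by less than 1 standard error. Among inhibitors, the 6 tested probes differed by -0.23 to 0.11, again 5 by less than 1 standard error. With 1 probe a gene, the median over the 4 tested proteinases was 0.14, and by pair 0.75, 0.05, 0.05 and 0.23. It moved to 0.05 without replicate 1 and to 0.39 without replicate 2. The median over the 4 inhibitors was 0.04, and -0.03 without replicate 1 or in the deposited values. Over 20620 tested genes it was 0.01, with 52.4% higher. A filter on dim signals left out *Mmp9* and *Mmp10*, so the proteinase median covers 4 of 6 genes.

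The pairs did not move alike. Pairs 1 and 2 differed in opposite directions on 9 of 12 member probes (75%), as they did on 73.9% of 26258 probes across the array, a share close to that of the members. Outside the family the matrix proteoglycan *Dcn* gave 1.06 and -1.43 in these pairs.

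The next question was whether members differed between replicate numbers by more than within a number. It does not use the contrast with which the genes were proposed, though earlier results of these data were known. A moderated F test in limma over the 3 replicate terms called 863 of 26371 probes (3.27%) at an adjusted p below 0.05, and 3 of 12 member probes. With 1 probe a gene, 732 of 20601 genes (3.55%) and 3 of 8 members were called, namely *Timp4*, *Mmp2* and *Timp3*. With the probes of a gene averaged, *Mmp2* (adjusted p 0.0782) and *Timp3* (adjusted p 0.114) were no longer called. For *Timp4* the means of numbers 1 to 4 were 5.96, 7.64, 8.05 and 6.79, a 4.25-fold range with an adjusted p of 0.0146. For *Mmp2* they were 16.42, 15.36, 15.14 and 14.99, a 2.68-fold range with an adjusted p of 0.0385. For *Timp3* they were 14.03, 12.98, 12.90 and 12.51, a 2.86-fold range with an adjusted p of 0.0430. Both arrays of number 1 were the extreme ones of their groups for all 3, highest for *Mmp2* and *Timp3* and lowest for *Timp4*.

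The other probe of *Mmp2* and the other probes of *Timp3* were also highest in number 1 but missed the threshold, with adjusted p of 0.170, 0.197 and 0.182. *Mmp14* was at 16.85, 16.23, 16.04 and 15.77 by number, with an adjusted p of 0.0744. *Mmp3* had an adjusted p of 0.266 and *Timp2* of 0.762, and for *Mmp13* and *Timp1* it was 0.205 and 0.161.

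**Figure D5:**
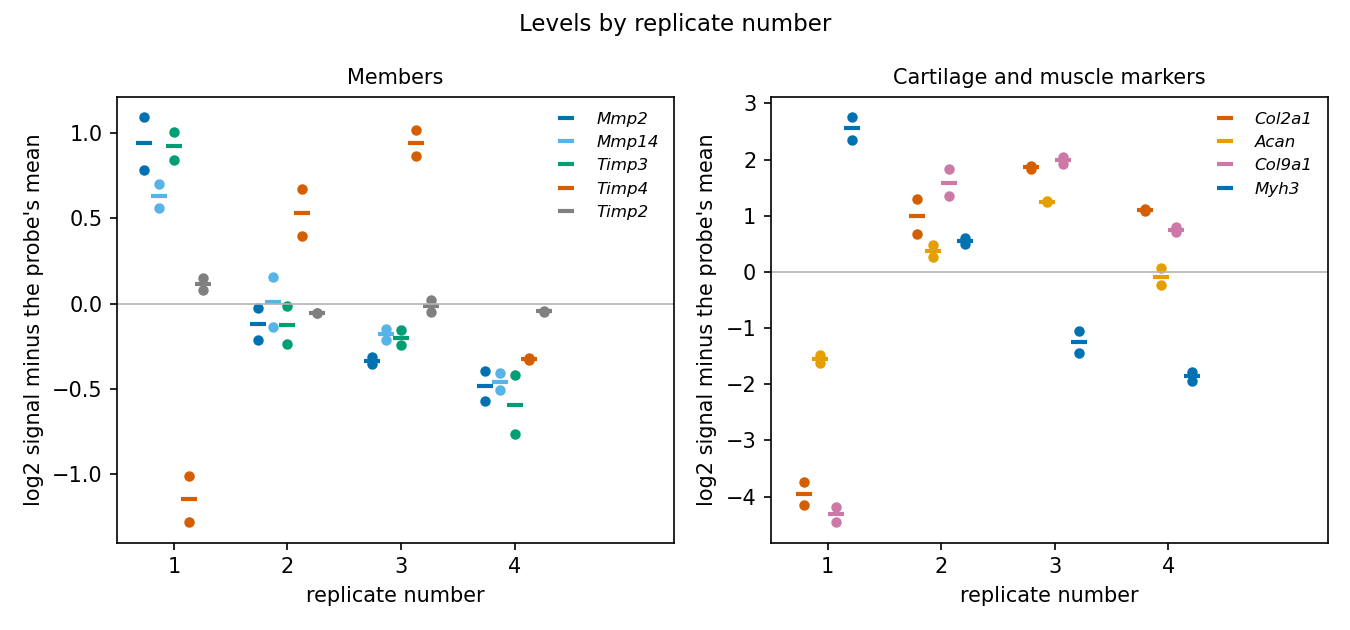
Log2 level relative to the mean of the 8 arrays, by replicate number, for 5 members (left) and 4 marker genes of cartilage and muscle (right), with 1 point per array. Number 1 is high for *Mmp2* and *Timp3* and low for *Timp4*, and it is low for *Col2a1*, *Acan* and *Col9a1* and high for *Myh3*. The 4 markers shown are those of their lists past the replicate threshold. Among the markers not shown, number 1 was not the lowest for *Sox9* and not the highest for *Acta1* and *Des*.

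These calls were lost when single replicate numbers, and with them 2 arrays, were left out. Without replicate 1, 0 probes passed in limma and 4730 had an unadjusted p below 0.05, and the adjusted p was 0.124 for *Timp4*, 0.487 for *Mmp2* and 0.372 for *Timp3*. Without replicate 3 they were 0.0894, 0.121 and 0.115, with 110 probes called, and without replicate 4 they were 0.0678, 0.163 and 0.175, with 102 called. Numbers 1 and 4, which span the range of *Mmp2* and *Timp3*, are both in the fit without replicate 3, and numbers 1 and 3, which span that of *Timp4*, in the fit without replicate 4. A lost call there does not mean a smaller range. Without replicate 2, 5225 probes were called, these 3 members among them, and also *Mmp14* (adjusted p 0.0212) and *Mmp13* (adjusted p 0.0447). With no filter on dim probes, 73 probes passed and none of these 3. Number 1 was farthest from the median of the 4 numbers in 560 of 857 called probes with a complete set of values (65.3%), and number 4 in 204 (23.8%).

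Marker genes of cell types differed between the same cultures. The label osteoblast-like was checked first. Of 9 osteoblast markers, all 9 were on the array and 8 were well above background on all 8 arrays, *Phex* being so on 1 of 4 in each group. Their summed signal was 333207, 309814, 327254 and 348321 on non-irradiated arrays and 331882, 272790, 331961 and 327629 on irradiated arrays 1 to 4, and *Col1a1*, the collagen of bone, made up 91.7% of it. The mean log2 level of the list, which weights its genes equally, was 9.51, 8.95, 8.89 and 8.43 by number. *Alpl*, the alkaline phosphatase of mineralizing cells, was lowest in number 4, at 8.49 against 10.33 to 10.73 in the others, with an adjusted p of 0.0200. *Bglap*, which encodes osteocalcin, was at 8.81, 8.04, 8.20 and 6.84 (adjusted p 0.0277), highest in number 1 and lowest in number 4. The other 6 tested markers missed the threshold.

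Cartilage and muscle markers were present too. Of 5 cartilage markers, all 5 were on the array, with a summed signal of 4380, 103524, 151751 and 77898 on non-irradiated arrays. On irradiated arrays 1 to 4 it was 3807, 114968, 162203 and 76085. *Col9a1* made up 60.1% of the sum, and *Matn1* was not above background on 1 array. Number 1 was far below the others in this sum. *Col2a1*, the collagen of cartilage, was at 10.04, 14.98, 15.85 and 15.09 by number (adjusted p 0.00236), and *Acan* and *Col9a1* were also lowest in number 1 and past the threshold. *Sox9*, a regulator of cartilage cells, was at 10.73, 11.58, 11.36 and 10.71 (adjusted p 0.184), so that number 1 was not the lowest, and *Matn1* missed the threshold (adjusted p 0.198). Of 5 muscle markers, all on the array, the summed signal was 2583, 709, 356 and 272 on non-irradiated arrays and 1986, 739, 369 and 271 on irradiated arrays 1 to 4. Embryonic myosin *Myh3* made up 73.9% of it, *Myod1* was well above background on 4 of 8 arrays, and number 1 was highest in this sum. Among the 4 tested muscle markers *Myh3* alone passed the replicate threshold. *Myog*, a regulator of muscle cells, was highest in number 1 as well, at 7.13 against 5.69 to 6.19, and so was *Myod1*, which was not tested, at 5.26 against 2.13 to 3.61. *Acta1* was at 6.54, 6.79, 6.90 and 6.31 by number, and *Des* was lowest in number 1, at 5.20, so that number 1 was highest in neither. All 5 endothelium markers were above background on every array, with a summed signal of 9743, 13057, 7196 and 7014 on non-irradiated arrays and 8133, 18164, 8711 and 7445 on irradiated arrays 1 to 4, of which *Vwf* made up 92.1%. The receptor *Tek* was highest in number 1, at 8.03 against 5.76 to 6.27 (adjusted p 0.0277), and the receptor *Kdr* was at 9.32, 9.32, 7.64 and 7.23 by number (adjusted p 0.0326). The other 3 missed the threshold. In these cultures, fewer cells of a type and less RNA per cell cannot be told apart. The part of these cell types in the levels of *Mmp2*, *Timp3* and *Timp4* was not tested.

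Genes around the family came from lists drawn up by function. Of 19 other matrix metalloproteinases, 17 were on the array and 11 were tested, with 6 higher and 5 lower, a median difference of 0.02, and 0 at an unadjusted p below 0.05 in limma. *Mmp25* and *Mmp15*, membrane-bound enzymes, had differences of 0.70 (standard error 0.38) and 0.59 (standard error 0.37), as large as that of *Mmp3*. Each was higher in 3 of 4 pairs, and the pairs were far from alike. In pairs 1 to 4 the values were -0.56, 1.52, 1.57 and 0.28 for *Mmp25*, and -0.33, 0.54, 2.03 and 0.13 for *Mmp15*. *Mmp19* was higher in all 4 pairs, by a mean of 0.11. Over all tested genes, with 1 probe each, 1.47% were below that p and higher and 0.941% below it and lower. *Mmp7*, *Mmp12*, *Mmp20*, *Mmp21* and *Mmp27* were not above background on any array. Past the replicate threshold were *Mmp17*, a membrane-anchored enzyme, at 9.82, 7.82, 7.10 and 7.31 by number, and *Mmp23*, at 11.84, 10.65, 10.60 and 10.16. As with *Mmp2*, number 1 was highest in both. Over the array it was highest in 470 of the 857 probes past this threshold with a complete set of values.

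Of 13 genes that activate or restrain the proteinases, 11 were tested, with a median of 0.03. The plasminogen activator *Plat* and the cathepsin *Ctsk* passed the replicate threshold, again highest in number 1 (12.50 against 10.87 to 11.49, and 14.39 against 12.79 to 13.20). Of 8 inducers and receptors, 4 were tested, with a median of 0.03. The cytokine genes *Il1a*, *Il1b* and *Il6* were not above background on any array, and *Tnf* was on 1 of 8. Binding of AP-1 factors to the *Mmp3*, *Mmp10* and *Mmp13* promoters was not measured. The 7 AP-1 genes had a median of -0.09, with 2 higher and 5 lower. Among them *Fos* was lower in 4 of 4 pairs, by a mean of -0.10 (standard error 0.11), and *Fosl1* was 0.33 higher (standard error 0.15). Of 12 matrix substrate genes, 7 were higher and 5 lower, with a median of 0.02, and *Col4a1*, *Acan* and *Col2a1* passed the replicate threshold. None of the genes in these lists had an unadjusted p below 0.05 for irradiation, where 676 of 26391 probes did.

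The genes whose 8 values ran closest to those of the brighter *Mmp3* probe, by root mean square difference of centered log2 values over the 8 arrays, were *Inip* (0.226), *Fes* (0.230), *Kirrel2* (0.232), *Pdzd7* (0.232) and *Limd2* (0.235). The *Mmp3* values themselves had a standard deviation of 0.47 over these arrays. With 26391 probes to choose from and 8 arrays, such likeness describes the profiles only.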

How the data were processed

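Scanner intensity values of the 8 arrays were read from the raw files of Agilent Feature Extraction 11.0.1.1. The authors' deposited values are quantile normalized log2 signals and were used only as an alternative. Here log2 of the processed signal was used, outlying spots were left out, 58717 rat spots were quantile normalized, and spots of a probe were averaged, giving 45598 probes. A probe was tested when more than 50% of its spots were well above background on every array of 1 group or both. That left 26404 probes, of which 26391 could be fitted. limma 3.58.1 in R 4.3.3 fitted irradiation with replicate number as a block, two-sided, with Benjamini-Hochberg adjustment over all probes. The scanner's names for the arrays give both arrays of a replicate number 1 animal number. Deviations from the group mean correlated within numbers 1 to 4 at 0.608, 0.0553, 0.570 and 0.749, and irradiated replicate 2 correlated best with non-irradiated replicate 1. For *Col9a1* and *Myh3*, which varied between the numbers, both arrays of number 2 lay apart from number 1. *Col9a1* was at 15.89 and 16.37 (number 1 at 10.37 and 10.09) and *Myh3* at 8.87 and 8.97 (number 1 at 11.14 and 10.73). But for *Col9a1* irradiated array 2 was nearer to non-irradiated array 3 (16.47) than to array 2. For *Col2a1* it was at 14.67, nearer to non-irradiated array 4 (15.07) than to array 2 (15.29). These levels do not settle the pairing of number 2, which rests on the scanner's names. The 8 arrays shared 1 slide and 1 scan. Non-irradiated arrays lay in slide columns 1 and 3 and irradiated ones in columns 2 and 4, so position and irradiation cannot be told apart. The 2 arrays of a number lay side by side in 1 row, so position and replicate number cannot be told apart either. Named genes are all member probes and the listed genes (1 probe a gene, the highest mean signal), and the 5 profiles nearest to *Mmp3*. The members and lists were chosen with earlier results of these data known. Alternatives were 75th percentile scaling, normexp correction with offset 50, the mean signal without background correction, the deposited values, no filter or a filter on all 8 arrays, outlying spots kept, each replicate left out, a trended robust variance, probes of a gene averaged, and no or a random replicate block. The steps were tested on simulated data with planted changes larger than those of the members. That checks the computation and not the detection of small differences.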

Additional observations from a re-analysis of the deposited data

Results flagged for a closer look

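In 3 of 30 groups of 4 values (15 member probes, each in the irradiated and the non-irradiated group), 1 array stood far from the other 3 by the size of the gap against the whole range. Chance gives about 1 in 20 such groups, and over all tested probes 7.35% of 52500 groups had such a gap, so the count says little of the members. All 3 belong to replicate number 1. *Mmp2* on probe A_44_P1087178 was at 16.57 on irradiated array 1, with the others between 15.08 and 15.26. *Mmp2* on probe A_64_P036955 was at 9.09 on non-irradiated array 1, with the others between 8.45 and 8.51. *Timp2* was at 17.88 on irradiated array 1, with the others at 17.67 to 17.68. For *Mmp2* both arrays of number 1 were the highest of their groups on either probe, while for *Timp2* the means of the 4 numbers lay within 0.17 on the log2 scale. What sets replicate number 1 apart was not tested.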

How the results depend on the processing

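Beside the reported values, 15 alternatives were run where they apply. No probe passed an adjusted p of 0.1 for irradiation in limma in any of them, and the smallest adjusted p was 0.202 with a random replicate block.

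The count at an unadjusted p below 0.05, 676, was 248 with normexp correction, 252 with the mean signal, 292 in the deposited values, 1663 with no filter, 448 with the filter on all 8 arrays and 379 with a trended robust variance. Without 1 replicate it was 472 to 1446, with 1134 without replicate 1 and 1446 without replicate 2, where 657 were higher and 789 lower. Without the replicate block, so with pairing left out, it was 251. The count of probes with every pair one way, 1969, was 4784 with no filter (1716 higher, 3068 lower) and 3851 to 7488 with 1 replicate left out, where 3 pairs remain.

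The count of probes that varied between replicate numbers, 863, was 1527 with normexp correction, 1676 with the mean signal, 1733 in the deposited values, 73 with no filter, 1468 with a trended robust variance, and 0 to 5225 with 1 replicate left out (0 without replicate 1, where 4730 had an unadjusted p below 0.05 in limma).

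The median proteinase difference, 0.14, lay between 0.05 without replicate 1 and 0.39 without replicate 2. The median inhibitor difference, 0.04, was -0.0344 in the deposited values and -0.0336 to 0.0591 with 1 replicate left out. The *Mmp3* difference ran from 0.34 with normexp correction to 0.68 without replicate 4. Causes were not tested.

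With 4 arrays a group, precision is limited, and signals near background limit *Mmp9*, *Mmp10* and the second *Mmp3* probe. *Mmp2* and *Timp3* missed the replicate threshold when probes of a gene were averaged (adjusted p 0.0782 and 0.114, over alternatives 0.00579 to 0.487 and 0.0115 to 0.372). *Mmp14* passed it with normexp correction (0.0275), with the mean signal (0.0269), without replicate 2 (0.0212) and with a trended robust variance (0.0137), over alternatives 0.0137 to 0.389, and *Mmp13* without replicate 2 (0.0447), over alternatives 0.0447 to 0.645.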
